A study of Danio rerio with 10 samples.

Results

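Marker genes of macrophages and other leukocytes were followed in zebrafish testis treated with Amh. The 10 markers, which also include csf1ra and mpeg1.1, were chosen by name, without the MHC class II genes. By gene symbol 8 of the 10 were found among the 33737 genes of the count tables: ptprc, coro1a, lcp1, marco, grna, c1qa, c1qb and c1qc. csf1ra was not analysed here. No gene carried the symbol mpeg1.1, and 3 IDs carried MPEG1 without showing which of them it is, so their values stand apart. Of the 8 genes 6 passed a filter on low counts and were tested. c1qb had 0 to 15 counts per library and did not pass it, and c1qc was listed at 0 in all 10 libraries. The symbols do not say how the counts of neighbouring or related genes were divided.

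Macrophages and other leukocytes live in the interstitium of the vertebrate testis, beside the Leydig cells, where macrophages clear dead cells and debris. They can be followed in tissue RNA through genes whose products serve these tasks. Ptprc (CD45) is a phosphatase of almost all blood leukocytes, and coronin 1A and L-plastin (lcp1) organise their actin. Marco is a scavenger receptor of macrophages, Mpeg1 a pore-forming protein of their phagosomes, Csf1ra a receptor for the growth factors that maintain them, and progranulin (grna) a secreted and lysosomal protein. C1q, built from A, B and C chains, is the recognition unit of the classical complement pathway and is made largely by macrophages.

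The tissue was adult wild-type zebrafish testis kept in culture for 3 days with 11KT (11-ketotestosterone), the main androgen of male fish. In 5 control libraries it received 11KT alone, and in 5 Amh libraries 11KT together with Amh, anti-Müllerian hormone, a Sertoli cell ligand of the TGF-beta family. The comparison asks how the tissue's RNA differs when Amh is added, in a study that sets Amh against the growth factor Igf3. Whole tissue was used, so fewer leukocytes, less of a transcript per leukocyte and a change in other testis cells cannot be told apart. No library is of isolated leukocytes.

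Libraries held 8455226 to 15448069 counts, and 5 replicate numbers are shared by the groups. Within each number depth was 1.2 to 1.3 times higher with Amh. Levels are in CPM, the count scaled to library size by TMM. A gene with no count could still have had up to 3, which stood for 0.18 to 0.35 CPM. These limits cover counting error only. Libraries of 1 number deviated from their group means together (correlation across genes 0.49 to 0.784), so ratios within a number are given throughout. The libraries are called biological replicates, but what a number stands for is not said, so the p-values measure the spread between libraries, which may be technical. As a check of the tissue, the 7 matched germ cell genes summed to 3928 to 5026 CPM.

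No leukocyte marker passed the test of Amh against control, while all 6 tested markers had a lower fitted level with Amh. The log2 fold changes ran from -0.84 for c1qa to -0.17 for lcp1, with a median of -0.44, against a median of -0.011 over all 19420 tested genes, of which 52.9% were below 0. Adjusted over all genes, 0 of 6 markers passed in edgeR's quasi-likelihood test without pairing (adjusted p = 0.9999 for each), and 0 had an unadjusted p under 0.05. The background was as low, with 0% of all genes called and 131 genes at an unadjusted p under 0.05. DESeq2 and limma-voom without pairing each called 0 genes. The unpaired fit leaves out the replicate number, so differences between numbers add to its spread. Its biological coefficient of variation was 31.7%, against 11.9% with the number as a block, so few calls are a limit of this fit. The ranges of the 2 groups overlapped for each of the 6 markers. The share of all genes with such an overlap is not given here, so the overlap is no trait of the markers.

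With the replicate number as a block, again 0 of 6 markers passed (adjusted p = 0.371 to 0.816), where 0.0206% of all genes were called. Their log2 fold changes had a median of -0.49, against -0.005 for all genes. At an unadjusted p under 0.05, 5 of 6 were lower with Amh (all but lcp1), against 4.88% of all tested genes. The IDs that carry MPEG1 are not among the 6, and ENSDARG00000043093 of them was higher with Amh at that cut. Without both libraries of number 1 the count was 3 of 6, against 2.83% of all genes, and without those of number 5 it was 4 of 6, against 3.33%. Earlier results of these data had already singled out c1qa, ptprc and marco, so these counts describe the markers and are no independent test of them. Of the 6 markers 3 were lower in 5 of 5 numbers and 5 in at least 4, where 5.09% and 23.3% of all genes were. With all libraries thinned to 1 depth, the blocked log2 fold changes of the 5 markers still tested lay between -0.97 (marco) and -0.23 (coro1a). The summed levels of 8 red cell genes and of 7 germ cell genes were also lower with Amh in 5 of 5 numbers, and their part in the marker levels was not tested.

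**Figure D1:**
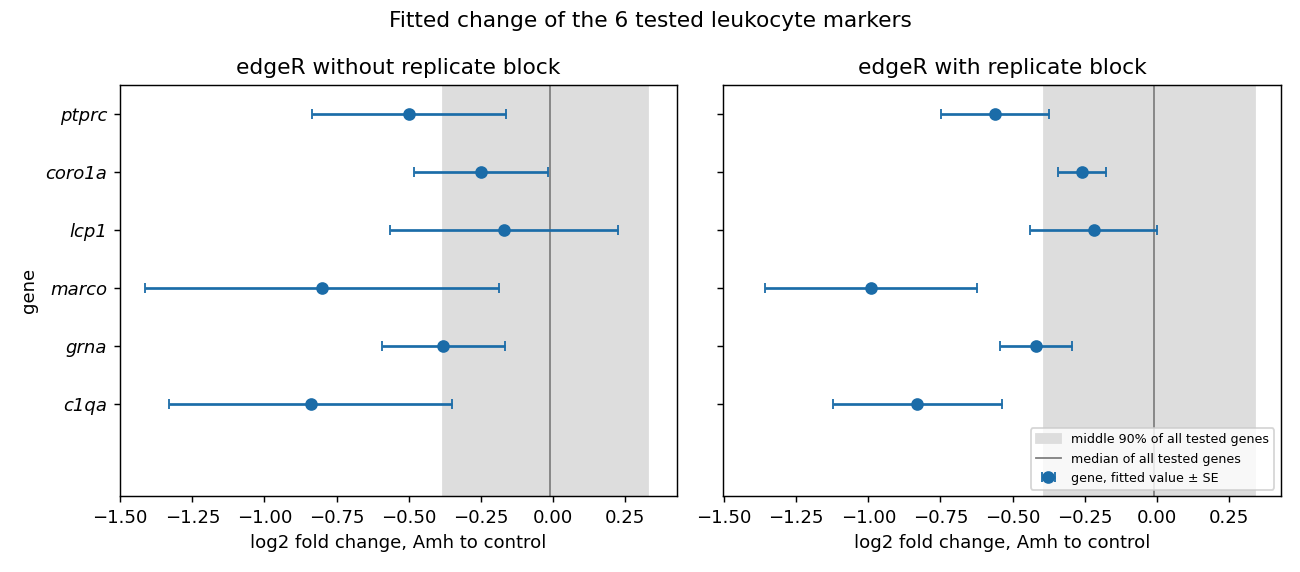
Fitted log2 fold change of Amh to control for the 6 tested leukocyte markers (points, with bars of 1 SE), without the replicate number as a block on the left and with it on the right. The grey band holds the middle 90% of all 19420 tested genes and the grey line is their median; marco, c1qa, ptprc and grna lie beyond the band with the block, and coro1a and lcp1 lie within it.

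Among the genes of all leukocytes, ptprc (ENSDARG00000071437) was lower with Amh in each number, most of all in number 1. Its levels in control libraries 1 to 5 were 9.04, 7.01, 12.1, 14.5 and 8.16 CPM, and in Amh libraries 1 to 5 they were 3.05, 6.24, 11.2, 10.1 and 5.52 CPM. Numbers 3 and 4 were the highest in both groups, and the ranges of the groups overlapped. The ratio of Amh to control was 0.338 in number 1, 0.676 in number 5, 0.696 in number 4, 0.89 in number 2 and 0.926 in number 3. Group means were 10.2 ± 3.09 CPM in the controls against 7.24 ± 3.39 CPM with Amh (SD, n = 5). The log2 fold change was -0.50 ± 0.337 (SE) without pairing and -0.56 ± 0.187 with the block (edgeR adjusted p = 0.422). Without number 1 the blocked value was -0.35. The unpaired value was -0.30 without the Amh library of number 1 and -0.33 without the control library of number 4.

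coro1a (ENSDARG00000054610, listed as CORO1A) had the narrowest range of ratios among the 6 tested markers. Control libraries 1 to 5 stood at 68.1, 48.0, 46.7, 68.5 and 36.2 CPM and Amh libraries at 53.5, 42.2, 45.5, 58.0 and 25.5 CPM. It was lower with Amh in each number, with ratios of 0.787, 0.879, 0.973, 0.846 and 0.704. The difference between numbers was larger than that between groups, since number 5 was lowest and number 4 highest in both. The fitted log2 fold change was -0.25 ± 0.232 without pairing and -0.26 ± 0.083 with the block (SE, edgeR adjusted p = 0.382). The unpaired value was -0.10 without the Amh library of number 5 and -0.15 without the control library of either number 1 or number 4, while the blocked value lay between -0.32 and -0.21.

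lcp1 (ENSDARG00000023188, listed as LCP1) showed no common direction. Its levels were 3.13, 2.22, 6.23, 6.29 and 5.39 CPM in control libraries 1 to 5 and 3.05, 2.29, 7.58, 5.14 and 2.64 CPM in Amh libraries 1 to 5. The Amh library was lower in 3 numbers and higher in 2, and number 5 had the lowest ratio, 0.49. The blocked log2 fold change was -0.22 ± 0.219 (SE) and came to 0.00 without number 5 and to -0.36 without number 3. Without pairing it was -0.17 ± 0.394 (SE), and leaving out 1 library gave values from -0.51 to -0.02.

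**Figure D2:**
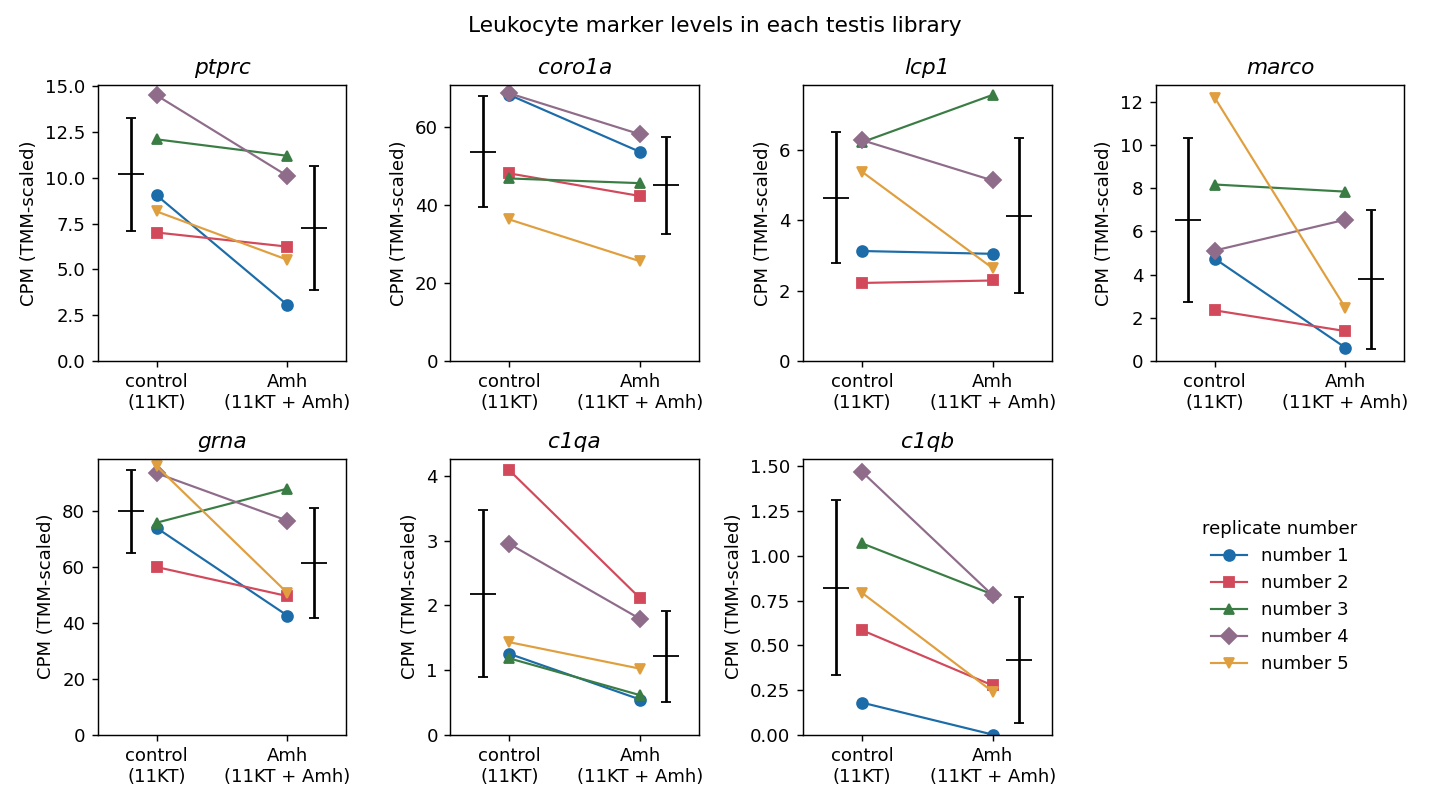
Level in CPM of 7 leukocyte markers in each library, control on the left and Amh on the right of each panel, with a line joining libraries of the same replicate number. Black bars give the group mean and SD (n = 5); lines of ptprc, coro1a and c1qa go down in 5 of 5 numbers, those of marco, grna and lcp1 in 4, 4 and 3, and those of c1qb in numbers 2 to 5, with number 1 resting on 2 counts against 0.

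The macrophage gene marco (ENSDARG00000059294) spanned the widest range of the 6 tested markers, 20-fold between the lowest and the highest library. It stood at 4.74, 2.34, 8.17, 5.11 and 12.2 CPM in control libraries 1 to 5, and at 0.611, 1.38, 7.84, 6.54 and 2.46 CPM in Amh libraries 1 to 5. The low ratios came from numbers 1 and 5, at 0.129 and 0.201, while number 2 stood at 0.589, number 3 at 0.961 and number 4 at 1.28. In counts, marco had 53 against 9 reads in number 1 and 154 against 41 in number 5. Means were 6.51 ± 3.8 CPM in the controls against 3.77 ± 3.23 CPM with Amh (SD, n = 5). The log2 fold change was -0.80 ± 0.614 (SE) without pairing and -0.99 ± 0.367 with the block (edgeR adjusted p = 0.461). The blocked value was -0.67 without number 1 and -0.59 without number 5. Without pairing, leaving out 1 library gave values from -1.25 (Amh library 3) to -0.44 (control library 5), with -0.52 without Amh library 1.

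grna (ENSDARG00000004954), a progranulin gene, also had its lowest ratios in numbers 1 and 5. Control libraries 1 to 5 stood at 74.0, 60.0, 75.9, 93.6 and 96.1 CPM and Amh libraries at 42.6, 49.6, 88.1, 76.6 and 50.7 CPM. The ratio was 0.575 in number 1 and 0.528 in number 5, 0.827 in number 2 and 0.818 in number 4, and above 1 in number 3 (1.16). The blocked log2 fold change was -0.42 ± 0.125 (SE, edgeR adjusted p = 0.371; -0.38 ± 0.212 without pairing). It was -0.28 without number 5. With no low-count filter and the block, grna and marco passed (edgeR adjusted p = 0.0104 and 0.0156), where 0.389% of the 29017 genes then tested passed, and no other setting called a marker.

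Of the granulin genes related to grna by name, grna.1 and grna.2 had the same numbers low and grnas did not (all 3 were named after their values were seen). grna.1 (ENSDARG00000089362) stood at 75.6 ± 36.6 CPM in the controls against 45.8 ± 27.8 CPM with Amh (SD, n = 5), with ratios of 0.242 in number 1, 0.25 in number 5 and 0.651, 1.03 and 1.18 in numbers 4, 2 and 3. grna.2 (ENSDARG00000088641) stood at 18.7 ± 8.92 and 9.98 ± 7.01 CPM, with ratios of 0.162 and 0.279 in numbers 1 and 5. Neither passed with the block (log2 fold change -0.85 ± 0.258 and -1.05 ± 0.289, SE, edgeR adjusted p = 0.376 and 0.329). Ratios of grnas lay between 0.844 and 1.1. grnb, another progranulin gene, had a blocked log2 fold change of 0.00 ± 0.0849. Reads shared between such paralogues could have been given to any of them or dropped, so the division among them is uncertain.

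The 3 IDs that carry the symbol MPEG1 did not share a pattern. ENSDARG00000043093 stood at 27.9, 19.7, 20.5, 13.6 and 8.08 CPM in control libraries 1 to 5 and at 30.1, 15.7, 27.5, 17.2 and 18.1 CPM in Amh libraries. It was higher with Amh in 4 of 5 numbers, most of all in number 5 (ratio 2.23), where marco, grna and lcp1 were low. Its blocked log2 fold change was 0.33 ± 0.154 (SE, edgeR adjusted p = 0.569). The unadjusted p of that edgeR fit was 0.0481, so it went under 0.05 in the direction opposite to the markers. ENSDARG00000055290 ranged from 0 to 40 counts, with a blocked log2 fold change of -0.34 ± 0.559 (SE). It had 4 control counts against 0 with Amh in number 1 and 19 against 1 in number 5, where marco and grna also had their lowest ratios. In numbers 2, 3 and 4 it had 13 against 40, 7 against 17 and 35 against 32. ENSDARG00000078569 was listed at 0 in all libraries.

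**Figure D3:**
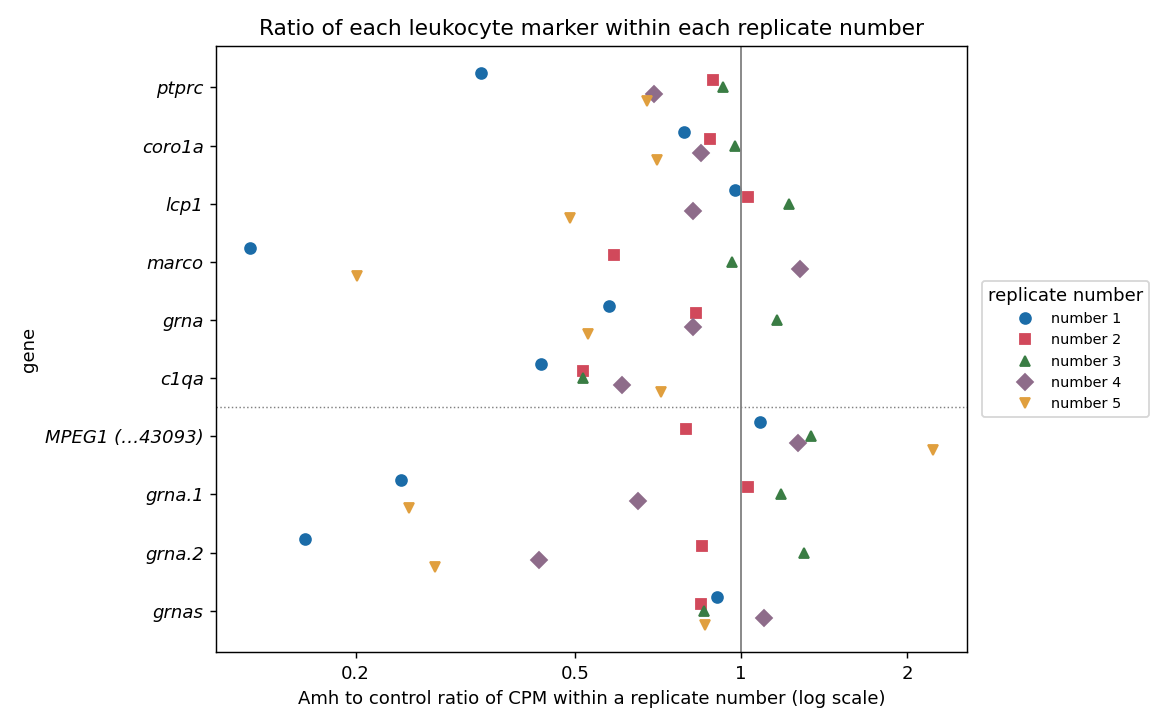
Ratio of CPM in the Amh library to that in the control library of the same replicate number, on a log scale, for the 6 tested leukocyte markers (above the dotted line) and for 4 genes of related symbol. Numbers 1 and 5 lie far to the left for marco, grna.1 and grna.2, while c1qa is below 1 in each number with ratios between 0.434 and 0.715.

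The complement gene c1qa (ENSDARG00000044613) had more even ratios than ptprc, marco or grna, although it was read few times. Its counts were 14, 35, 11, 30 and 18 in control libraries 1 to 5 and 8, 23, 7, 23 and 17 in Amh libraries 1 to 5. That corresponds to 1.25, 4.09, 1.18, 2.95 and 1.43 CPM and to 0.543, 2.11, 0.61, 1.79 and 1.02 CPM. Numbers 2 and 4 were highest in both groups, and the Amh library was lower in each number, by ratios of 0.434, 0.516, 0.516, 0.608 and 0.715 in numbers 1 to 5. The log2 fold change was -0.84 ± 0.489 (SE) without pairing and -0.83 ± 0.293 with the block (edgeR adjusted p = 0.439). The blocked value lay between -0.92 and -0.76 under the 10 alternatives that tested it. The unpaired value ranged from -1.12 to -0.49, the latter without the control library of number 2, which held the most c1qa.

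c1qb (ENSDARG00000044612), the gene of the B chain, was near the limit of detection. Its counts were 2, 5, 10, 15 and 10 in control libraries and 0, 3, 9, 10 and 4 in Amh libraries 1 to 5. It was lower with Amh in numbers 2 to 5, with ratios of 0.471, 0.73, 0.529 and 0.303, while number 1, with 2 counts against 0, is undecided at this depth. The means were 0.821 ± 0.49 CPM in the controls against 0.416 ± 0.351 CPM with Amh (SD, n = 5). The difference did not pass an exact two-sided permutation test over libraries (p = 0.198), nor one paired by number, added later, whose p of 0.0625 is the smallest that 5 pairs can give. The numbers with most c1qb were 3 and 4, while c1qa was lowest in number 3 of the control libraries. c1qc (ENSDARG00000095627), the gene of the C chain, was listed at 0 in all libraries, which allows a level up to the limits given above, while its A and B partners were read.

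Across the 10 libraries ptprc and grna followed the mean level of the other markers closely, and coro1a and c1qa did not. With the mean log2 level of the other tested markers, each centred on its own mean, grna correlated at r = 0.939, ptprc at 0.926, marco at 0.727 and lcp1 at 0.628 (Pearson, 10 libraries). The values for coro1a and c1qa were 0.253 and 0.108. Taking out the group means left grna at 0.915 and ptprc at 0.908, with c1qa at -0.153. The levels were centred but not scaled, so a marker with a wide range, such as marco (20-fold), weighed more in the mean. A high value therefore does not say that a gene followed each of the other markers. These values are descriptions of libraries that share a replicate number in pairs and differ in depth.

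Of 15649 other tested genes with a symbol, the 6 most like the mean profile of the markers were itgae.2 (r = 0.954), APBB1IP (0.95), itgae.1 (0.938), dnm3a (0.926), TERT (0.921) and ITGA1 (0.912), over 10 libraries. That profile was likewise centred and not scaled, so markers with a wide range weighed more in it. itgae.1 and itgae.2 carry the name of the integrin alpha E chain, known in mammals from intraepithelial T cells, and APBB1IP (RIAM) links Rap1 to talin in leukocytes. itgae.2 stood at 9.76 ± 3.32 CPM in the controls against 6.83 ± 5.2 CPM with Amh (SD, n = 5), with a blocked log2 fold change of -0.74 ± 0.265 (SE, edgeR adjusted p = 0.446). For APBB1IP the blocked value was -0.27 ± 0.143, lower in 5 of 5 numbers. Blocked values of itgae.1, ITGA1, dnm3a and TERT were -0.53 ± 0.282, -0.41 ± 0.163, -0.18 ± 0.0799 and -0.14 ± 0.093. The profile was itself lower with Amh, so lower values of genes picked for likeness to it follow in part from the choice. After the group means were taken out the 3 most alike were serpinb1l3 (0.98), TERT (0.96) and itgae.2 (0.95). The blocked value of serpinb1l3 was 0.04 ± 0.0782, and it was lower with Amh in 2 of 5 numbers.

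Other macrophage genes were lower with Amh in part and did not pass. Of 15 tested genes of that list 0 rose and 0 fell, with or without the block, 11 had a log2 fold change below 0, and the median was -0.33 without pairing and -0.49 with the block. At an unadjusted p under 0.05 with the block, 6 were lower and 0 higher, against 4.88% of all genes that were lower. This list was chosen with earlier results of these data known, so the counts describe it and are no independent test. IRF8, a transcription factor of monocytes and macrophages, stood at 9.02 ± 3.18 CPM in the controls against 6.06 ± 2.47 CPM with Amh (SD, n = 5). Its ratios lay between 0.556 and 0.757, below 1 in each number, and its blocked log2 fold change was -0.58 ± 0.152 (SE, edgeR adjusted p = 0.31). The chemokine gene ccl34b.1 stood at 1.39 ± 0.871 and 0.578 ± 0.423 CPM (blocked log2 fold change -1.22 ± 0.45, SE). It had only 2 to 34 counts per library, near the limit of detection in some. It was lower with Amh in 4 of 5 numbers and higher in number 1 (ratio 1.52). Named after their values were seen, apoc1 and apoeb, apolipoprotein genes that macrophages express, had blocked values of -0.69 ± 0.202 and -0.50 ± 0.229, lgals9l1, a galectin gene, -0.64 ± 0.188, and SPI1, the macrophage factor PU.1, -0.66 ± 0.266. In contrast cd68, SLC37A2 and mertka, a lysosomal protein, a sugar phosphate transporter and a receptor for dying cells, stood at 0.07 ± 0.0786, 0.06 ± 0.071 and 0.07 ± 0.134. The related gene spi1a, also named with its values in view, stood at -0.08 ± 0.26, so the lower value of SPI1 was not shared by it. The 2 tested IDs of MFAP4, named likewise, stood at -0.13 ± 0.287 and -0.49 ± 0.379.

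Other pan-leukocyte genes lacked a common direction. Of 15 tested genes 8 were below 0 without pairing, the median log2 fold change was -0.02 (-0.05 with the block), and 0 passed. With the block 0 were lower and 2 higher at an unadjusted p under 0.05. Of all 19420 tested genes 1694 stood under 0.05 there, 948 of them lower. tyrobp, the signalling adaptor of myeloid receptors, stood at 1.59 ± 0.649 CPM in the controls against 1.16 ± 0.135 CPM with Amh (SD, n = 5). ARPC1B, a subunit of the Arp2/3 actin complex, stood at 153 ± 25.8 and 179 ± 52.9 CPM (blocked log2 fold change 0.19 ± 0.0803, SE). In the controls srgn, named after its values were seen, stood at 836 ± 215 CPM, against 10.2 ± 3.09 CPM for ptprc. Which cells the RNA of such highly read genes came from was not tested, so the list need not follow leukocytes alone.

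In the lists of other white blood cells 0 genes passed, with or without the block. The 7 tested neutrophil genes had a median log2 fold change of -0.01 without pairing, and 4 of them were below 0. The lysozyme gene lyz was at -0.45 ± 0.276 (SE) and MMP9, a gelatinase, at 0.16 ± 0.161. In the controls lyz stood at 2.1 ± 0.347 CPM and MMP9 at 150 ± 26 CPM (SD, n = 5). Which cells the RNA of MMP9 came from was not tested, so this list need not follow neutrophils alone. The 8 tested genes of T and NK cells had a median of -0.04 and the 5 of B cells one of -0.20, with blnk, an adaptor of the B cell receptor, at -0.68 ± 0.326. Among 8 genes of dendritic cells and thrombocytes the median was -0.05, with flt3, a receptor of dendritic cell precursors, at -0.39 ± 0.388 and itga2b, a thrombocyte integrin, at 0.68 ± 0.346. Several defining lymphocyte genes were read too rarely to be tested, with 0 to 8 counts per library for cd8a and 1 to 6 for ighm.

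Partners of the markers did not pass either. In the complement list 11 genes were tested, with a median log2 fold change of -0.08 without pairing. MASP2, a protease of the lectin pathway, stood at 0.953 ± 0.734 CPM in the controls against 1.62 ± 0.51 CPM with Amh (SD, n = 5). c3a.1, a gene of the central complement component C3, stood at 8.34 ± 2.62 and 7.07 ± 1.68 CPM. Of genes around the CSF1 receptor 10 were tested (median 0.04). The ligand genes csf1a and il34 had blocked log2 fold changes of 0.17 ± 0.308 and 0.18 ± 0.329 (SE). CBL, a ubiquitin ligase that acts on such receptors, stood at 39.7 ± 4.39 and 42.6 ± 2.27 CPM. csf1rb, the paralogue of csf1ra, had 0 to 7 counts per library and was not tested.

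Of 9 tested genes of granulins, sortilin and the lysosome the median log2 fold change was 0.07, and of 8 scavenger receptor genes it was -0.10 without pairing. LAMP2, a lysosomal membrane protein, had a blocked log2 fold change of 0.31 ± 0.0947 (SE). The scavenger receptor CD36 was lower in 5 of 5 numbers (blocked log2 fold change -0.55 ± 0.24) and stab2 in 4 (-0.15 ± 0.111). None of these passed.

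The summed level of 23 other macrophage genes had ratios of 0.607 in number 1, 0.607 in number 5 and 0.767 in number 4, and of 1.14 and 1.2 in numbers 2 and 3. It ranged from 830 to 1604 CPM in the controls and from 503 to 1230 CPM with Amh. The apolipoprotein gene apoeb made up much of it, at 614 ± 288 and 490 ± 280 CPM (SD, n = 5). Without apoeb, a sum formed after its share was seen, the ratios were 0.846, 0.859, 1.1, 0.987 and 0.86 in numbers 1 to 5. Much of that smaller sum, 425 to 532 CPM in the controls, was cd68, at 209 ± 33.3 and 218 ± 9.95 CPM (SD, n = 5). Sums of other cell types are given beside the macrophage sum, with overlapping ranges of the groups in each, and no sum was tested. The 8 red cell genes (EPOR at 0 in all libraries) ranged from 67.3 to 156 CPM in the controls and 47.4 to 118 CPM with Amh, and were lower with Amh in 5 of 5 numbers, with the lowest ratios in numbers 5 (0.635) and 1 (0.704). The 10 Leydig cell genes summed to 49 to 370 CPM in the controls and 42.1 to 230 CPM with Amh, lower in 4 of 5 numbers, though not in number 1 (ratio 1.3). The gene insl3, named after its values were seen, made up much of that sum, at 100 ± 68.7 and 82.2 ± 48 CPM (SD, n = 5). Of the 9 tested Leydig cell genes 6 had a log2 fold change below 0 without pairing. The sum of 11 Sertoli cell genes was higher with Amh in 5 of 5 numbers, at 1359 to 2109 against 1699 to 2698 CPM. The gene gsdf, named after its values were seen, made up much of it, at 1008 ± 282 and 1256 ± 337 CPM (SD, n = 5). The genes of that list did not all go 1 way, since 2 of the 11 were lower with Amh in 5 of 5 numbers. Sums of germ cell and scavenger receptor genes were lower in 5 of 5 (ratios of 0.918 to 0.995 and 0.838 to 0.983). The 6 endothelial genes, with a sum lower in 3 of 5 numbers, ranged from 25.1 to 52.2 against 31.3 to 47.8 CPM. The part of blood content or cell make-up in the marker levels was not tested.

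**Figure D4:**
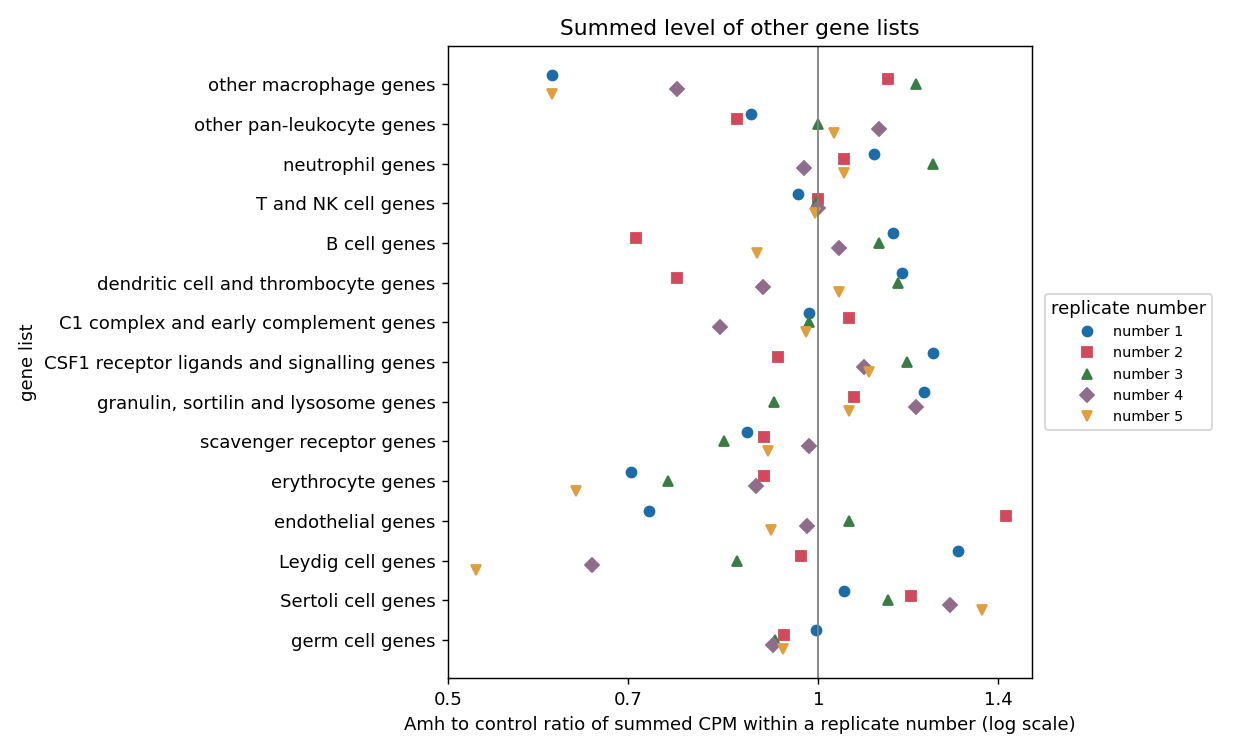
Ratio of the summed CPM of each gene list in the Amh library to that in the control library of the same replicate number, on a log scale, with 1 symbol per number. Numbers 1 and 5 are lowest for other macrophage genes (0.607 each), a sum of which apoeb makes up much. Red cell genes are below 1 in 5 of 5 numbers. The sum of T and NK cell genes lies close to 1. RUNX3, named after its values were seen, makes up much of that sum, at 35.6 CPM in the controls and 34.9 CPM with Amh.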

How the data were processed

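RNA was sequenced from 10 libraries of cultured testis, 5 control and 5 Amh. The deposited values are raw read counts per Ensembl gene, 1 file per library, with no normalization by the authors. The submitters' processing notes name TopHat2 2.0.5, HTSeq, DESeq, SAMtools 0.1.18, FastQC 0.10.1 and the build Zv9, without roles. Annotation release, counting mode and strand: not given in the sources used here.

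Symbols came from the reference name table, matched in any case, and every ID was taken where only the name without its final a or b exists. Of 33737 genes 29017 had a read and 19420 passed filterByExpr. Counts were scaled by TMM and fitted with edgeR 4.0.16 in R 4.3.3 (quasi-likelihood F test across all genes, group as the only term), with p adjusted by Benjamini-Hochberg and called under 0.05. Standard errors were taken as the absolute log2 fold change over the root of F, and a prior count of 2 was used for log2 levels.

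The replicate number was added as a block because same-numbered libraries correlated at 0.49 to 0.784 and others at -0.338 to 0.13, above the set minimum of 0.1. The pairing comes from the numbers in the sample titles and these correlations, and each of the 10 libraries was closest to its own number. The block lowered the biological coefficient of variation from 31.7% to 11.9%. On simulated data for Amh against control (19106 genes) the unpaired fit recovered 0%, 23.4% and 68.8% of log2 changes of 0.5, 1 and 2, and the blocked fit 52.2%, 76.6% and 98.4%, with 9 false calls among 156. Counts were simulated with number effects and the dispersions of the blocked fit, so the gain from the block was built in. Recovery was taken over genes of all levels and does not give that of genes with few counts, such as c1qa. DESeq2 1.42.0 and limma-voom (limma 3.58.1) were alternatives, and exact permutation used SciPy 1.17.1.

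The members and lists were chosen with earlier results of these data known. Named genes are the markers, the 2 genes of smallest unpaired p in each list, any list gene past the threshold, and the genes most alike in profile. Some genes that this rule names are not reported here. Others are marked in the text as named with values in view, and list genes given as partners (csf1a, il34, grnb, cd68, SLC37A2, mertka, csf1rb, cd8a and ighm) were picked likewise. No sequence is given, and coordinates were not used.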

Additional observations from a re-analysis of the deposited data

How the results depend on the processing

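Of the 6 markers, 0 passed in the unpaired comparison under its 17 alternatives, and with the replicate block 0 passed except with no low-count filter, where 2 did (grna and marco). The 6 log2 fold changes stayed below 0 in each setting that tested them, except that lcp1 came to 0.00 without number 5 in the blocked comparison. With a number left out the blocked value of lcp1 ran from -0.36 to 0.00. With 1 library left out its unpaired value ran from -0.51 to -0.02. c1qa was not tested after thinning to 1 depth. The median log2 fold change lay between -0.63 and -0.31 when a library or a number was left out. Over all genes the unpaired count of 0 became 4 with the replicate block (2 higher and 2 lower), 26 with DESeq2 and the block, 8 with limma-voom and the block, 3 with RLE scaling and the block, 5 after thinning with the block and 113 with no filter and the block. It lay between 0 and 229 when a library or number was left out, with 229 without number 2. Genes of the fixed lists called were 0 in the unpaired comparison and with the edgeR block, 5 with DESeq2 and the block, 12 with no filter and the block, and 0 to 13 with a library or number left out; the cause was not tested. DESeq2 with the block gave 4 of 6 markers no adjusted p. Depth limits c1qa, c1qb and c1qc most, at 0 to 35 counts per library.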

Other observations

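Some genes outside the markers differed within each replicate number without passing the test. TIE1, an endothelial receptor, stood at 2.23 ± 1.22 CPM in the controls against 0.951 ± 0.372 CPM with Amh (SD, n = 5), with ratios from 0.277 to 0.586 in the 5 numbers (blocked log2 fold change -1.17 ± 0.311, SE, edgeR adjusted p = 0.31). KDR, another endothelial receptor, had a blocked value of 0.26 ± 0.311. ZAP70, a kinase of T and NK cells, was higher with Amh in 5 of 5 numbers, with ratios from 1.18 to 1.55 (0.42 ± 0.152, adjusted p = 0.448). tnfrsf9a, a receptor of activated T cells in mammals, was lower in 5 of 5 (-0.42 ± 0.176), so that the T and NK cell list held values in both directions.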
